A study of Mus musculus with 16 samples.

Results

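Histone genes were examined in P19 cells, a mouse embryonal carcinoma line, after overexpression of the miRNA let-7a, knockdown of the RNA-binding protein Sfpq, or both. The genes were taken by name, as every probe of the array whose gene name begins with Hist1h to Hist4h, H2af, H1f or H3f. This gave 75 of the 55681 probes and 60 of the 30151 genes named on the array, namely, 45 replication-dependent (Hist) genes and 15 replacement genes. For a gene to be tested, all 4 arrays of some condition had to show a probe of it well above background, which 42 replication-dependent and 12 replacement genes met. The other 6 were Hist1h1d, Hist1h1t, Hist3h2bb-ps, H1fnt, H2afb1 and H2afb2, whose probes were well above background on 0 to 9 of the 16 arrays.

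RNA was hybridised to 1-colour Agilent arrays, 4 per condition. The conditions were P19 cells transfected with control oligonucleotides, with a let-7a mimic, with a short interfering RNA against Sfpq (siSfpq), or with mimic and siSfpq together, each oligonucleotide at 24 nM for 48 h. Arrays 1 and 2 were the closest pair of arrays in every condition. The SD of their difference over the 19654 genes tested was 0.177 to 0.292 on the log2 scale, and 0.289 to 0.699 for the other pairs. For this reason, and because the methods name 3 replicates for 4 arrays, arrays 1 and 2 were counted as 1 sample, called replicate 1-2. Over probes spotted repeatedly, single spots of arrays 1 and 2 differed by an SD of 0.132 to 0.156, where repeated spots within an array differed by 0.115 to 0.386, but arrays 1 and 4 (0.175 to 0.306) also lay within that range in some conditions, and arrays 1 and 3 differed by 0.369 to 0.561. Whether arrays 1 and 2 are one extract was thus not settled, and counts with them as separate samples are given with the alternatives. This left 12 samples, 3 per condition, with replicate 1-2 on one slide and replicates 3 and 4 on the other. Nothing in the labels says that replicates were separate cultures, and p-values measure only the spread between these samples. Levels below are log2 of the quantile-normalised probe signal, changes are differences of mean levels, and a gene was called higher or lower at an adjusted p under 0.05 (limma, Benjamini-Hochberg over 19654 genes).

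Replication-dependent histone genes supply chromatin with histones while DNA is copied in S phase. Their mRNAs carry no poly(A) tail and end in a conserved stem-loop, which is bound by Slbp and cut with the help of the U7 snRNP. Replacement genes are also expressed outside S phase, mostly have polyadenylated mRNAs and encode variants such as H3.3, H2A.Z and H1.0. Some Hist genes also make longer, polyadenylated transcripts in cells that leave the cycle. The RNA was labelled with a kit that primes on poly(A), so the signal of a Hist gene need not measure its total mRNA.

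The miRNA and the probes that carry the results are shown first. The mimic has the sequence of mature let-7a, given from RefSeq (GRCm38.p6) with the seed in capitals.
let-7a: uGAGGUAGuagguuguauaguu
Probes of 5 Hist genes contained the histone stem-loop, a hairpin pattern that 0.0180% of all 55681 probes hold on either strand. Windows of 30 bases are shown with the stem-loop in capitals, with the position of the whole probe (mm9).
Hist1h3a (chr13:23853756-23853815, minus strand): aattaaccaaaGGCTCTTTTCAGAGCCaca
Hist1h3g (chr13:23627719-23627778, plus strand): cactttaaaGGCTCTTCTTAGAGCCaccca
Hist1h3i (chr13:21874784-21874843, minus strand): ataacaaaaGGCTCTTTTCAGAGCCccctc
Hist1h4m (chr13:21903960-21904019, plus strand): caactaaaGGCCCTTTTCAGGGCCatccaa
Hist2h2bb (chr3:96074056-96074115, plus strand): acccaaaaGGCTCTTTTCAGAGCCacttta
A distal probe of Hist2h2bb, whose start lies 8698 bases further on, held a poly(A) signal, shown in capitals.
Hist2h2bb distal (chr3:96082754-96082813, plus strand): gttgtcagtttgAATAAAgacagagaaact
The motifs AATAAA or ATTAAA were found in sense in 13.7% of all probes, in 4 of 52 replication-dependent probes and in 4 of 23 replacement probes.

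Probes of H2A genes shared long identical runs, so their signals cannot be assigned to a single gene. Besides the stem-loop probes, 15 of 52 replication-dependent probes and 1 of 23 replacement probes shared a run of at least 20 bases with a probe of another histone gene. Some of the 15 were probes of H3 and H4 genes. The stem-loop probes of Hist1h3a, Hist1h3i and Hist2h2bb shared a run of 21 bases in the same way. Of 6 such H2A probes, 4 are shown whole, with the 29 bases common to the 6 in capitals (mm9).
Hist1h2af (chr13:23626113-23626172, plus strand): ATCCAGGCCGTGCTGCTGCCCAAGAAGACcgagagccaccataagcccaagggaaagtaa
Hist1h2ah (chr13:22127035-22127094, minus strand): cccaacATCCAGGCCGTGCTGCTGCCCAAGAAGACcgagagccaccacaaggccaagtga
Hist2h2ac (chr3:96024378-96024437, minus strand): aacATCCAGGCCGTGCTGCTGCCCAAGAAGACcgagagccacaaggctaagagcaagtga
H2afj (chr6:136757181-136757240, plus strand): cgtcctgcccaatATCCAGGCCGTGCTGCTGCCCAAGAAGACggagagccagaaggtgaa
No member probe was saturated on any array.

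Sfpq was measured first, as the target of the knockdown. Its level was 12.07, 11.98 and 11.99 in control replicates 1-2, 3 and 4, and 10.56, 11.47 and 10.61 in the siSfpq samples, a change of -1.13 ± 0.19 (SE, adjusted p = 0.00826). The samples did not overlap, but Sfpq fell by 0.51 (log2) in replicate 3 and by 1.51 and 1.37 in replicates 1-2 and 4. With let-7a + siSfpq the levels were 11.31, 11.50 and 11.40, a change from control of -0.61 ± 0.19 (adjusted p = 0.198, and 0.0586 with the replicate number as a block). Same-numbered samples deviated together (correlations of 0.29 to 0.71), so the blocked p is given beside the named histone genes whose call it changes, and blocked counts beside the gene lists. Markers of embryonal carcinoma cells had a mean level of 10.00 to 10.17 in the control samples, 9.64 to 10.04 with let-7a, 10.30 to 10.55 with siSfpq and 10.05 to 10.24 with both. Mesendoderm markers, 5 of 7 tested, had a mean of 6.38 to 6.55 in control, 5.93 to 6.62 with let-7a, 7.07 to 7.91 with siSfpq and 6.57 to 7.33 with both. The mean of 8 neuron markers was 8.33 to 8.88 in control, 9.87 to 10.56 with let-7a, 7.31 to 7.40 with siSfpq and 8.90 to 9.01 with both.

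The comparison of siSfpq with control asked how histone genes responded to loss of Sfpq. Changes were above 0 in 32 of 42 replication-dependent genes and below 0 in 8 of 12 replacement genes. Of the 42 replication-dependent genes, 12 rose and 1 fell (5.75% and 6.74% of all genes tested were called higher and lower), while 1 of 12 replacement genes fell and none rose. In each class the 1 gene called lower was no clear excess over the share of all genes. Among the genes that rose were H2A genes whose probes share a run. The median change was 0.51 over replication-dependent genes, -0.18 over replacement genes and 0.01 over all genes. Scaled to the 75th percentile instead, these medians were 0.62, -0.04 and 0.03. With the replicate block, 28 replication-dependent genes were higher and 5 lower, and 4 replacement genes were lower, against 17.8% and 19% of all genes. Without the filter on dim probes 2 of 54 histone genes were called (4.42% of all genes), and with only the groups compared 0 (0%).

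**Figure D1:**
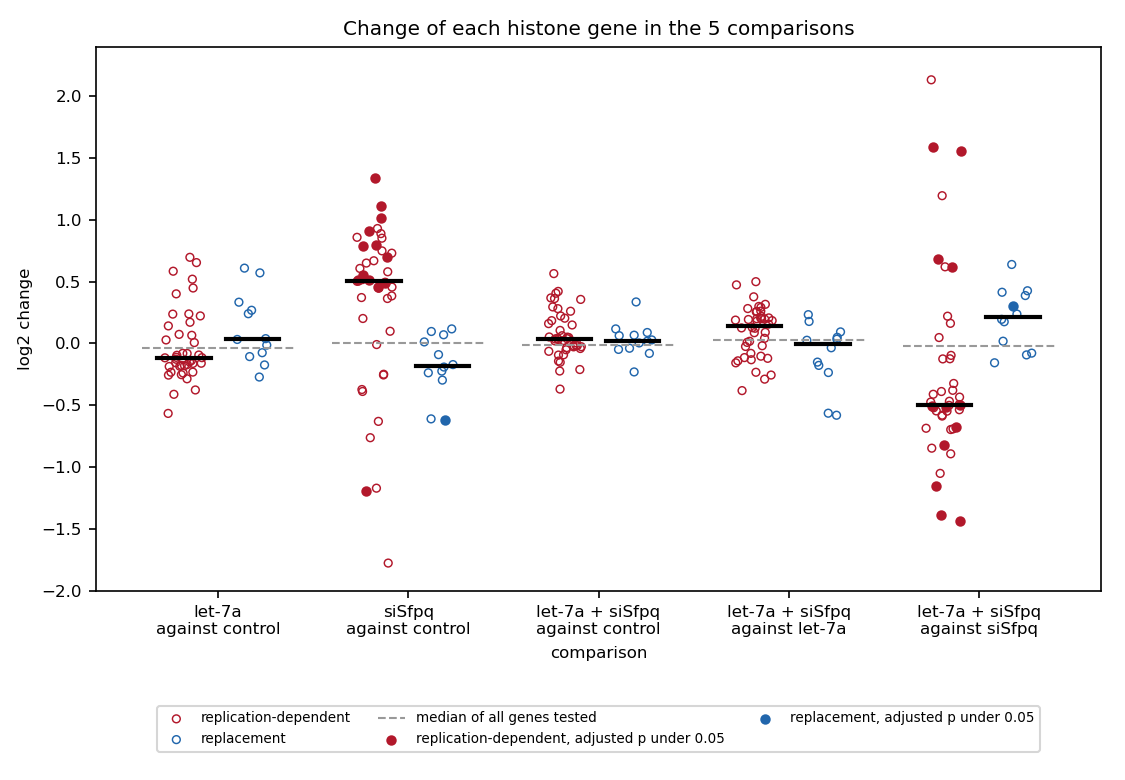
Log2 change of each of the 42 replication-dependent (red) and 12 replacement (blue) histone genes in the 5 comparisons, with filled points at an adjusted p under 0.05, black bars at the median of each class and dashed lines at the median of all 19654 genes. With siSfpq the 2 medians lie at 0.51 and -0.18, and in let-7a + siSfpq against siSfpq at -0.50 and 0.22.

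These counts varied with the samples used. Without replicate 3, 29 replication-dependent genes were higher and 7 lower, and 6 replacement genes were lower (22.7% and 24.4% of all genes). Without replicate 1-2 or without replicate 4 limma called no histone gene and 0% of all genes. At an unadjusted p under 0.05 there were 17 of 54 histone genes without replicate 1-2 (9.71% of all genes) and 5 without replicate 4 (8.82%), and the median change of the replication-dependent genes was 0.40 and 0.36, that of the replacement genes -0.13 and -0.10. By replicate number, the median change of the replication-dependent genes was 0.69, 0.10 and 0.80 in replicates 1-2, 3 and 4, and that of the replacement genes -0.27, -0.03 and -0.25. Replicate 3, in which Sfpq fell least, had the smallest median change of both classes. In every condition its array also differed more from the other arrays than those did from each other. A link between the fall of Sfpq and these medians was not tested. Over samples, 13 replication-dependent genes were higher in all 3 siSfpq samples than in all control samples and none was lower, and 2 replacement genes were lower, where 15.1% and 13.8% of all genes were higher and lower without overlap.

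**Figure D2:**
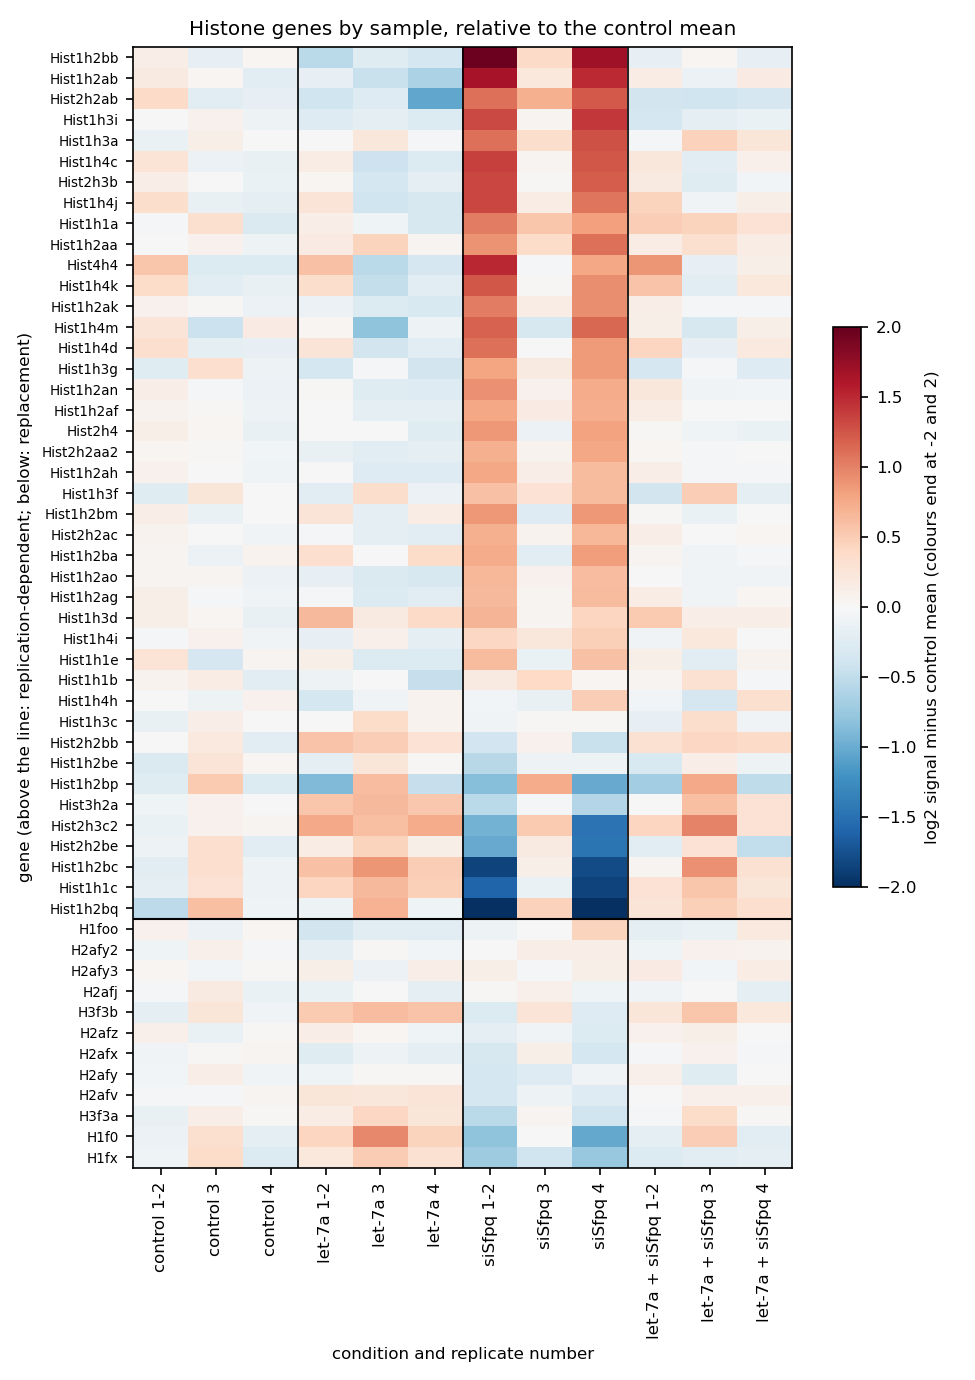
Level of the 54 tested histone genes in the 12 samples, as log2 signal minus the gene's control mean (colour, from -2 to 2), ordered by the change with siSfpq, with replication-dependent genes above the line and replacement genes below it. The columns of siSfpq 1-2 and 4 show the strongest colours, siSfpq 3 is close to control, and the median of the replication-dependent genes is 0.75, 0.08 and 0.74 in these samples in the order 1-2, 3 and 4.

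H2A genes made up most of the calls. Of 12 replication-dependent H2A genes 9 rose, with a median of 0.53 (5.75% of all genes were called higher). With the block 11 were higher and 1 was lower (17.8% and 19% of all genes). Hist1h2ab, a core H2A gene of the large cluster on chromosome 13, had levels of 14.49, 14.35 and 14.10 in control and 15.96, 14.52 and 15.80 with siSfpq. It rose by 1.11 ± 0.30 (SE, adjusted p = 0.0353), 2.17-fold, and the groups did not overlap, although replicate 3 lay just above the highest control. Hist2h2ab, an H2A gene of the smaller cluster on chromosome 3, had levels of 5.31, 4.69 and 4.77 in control and 6.03, 5.63 and 6.16 with siSfpq. It rose by 1.02 ± 0.26 (adjusted p = 0.0304), without overlap, and replicate 3 was the lowest siSfpq sample. Hist1h2aa, which encodes a testis-type H2A, rose by 0.79 ± 0.19 (adjusted p = 0.0229). The 8 H2A genes with a probe that shared a long run, Hist1h2af, Hist1h2ag, Hist1h2ah, Hist1h2ak, Hist1h2an, Hist1h2ao, Hist2h2aa2 and Hist2h2ac, had changes of 0.45 to 0.70, and 6 of them were called, the exceptions being Hist1h2ag and Hist1h2an (adjusted p = 0.0632 and 0.0576, and 0.00777 and 0.00814 with the block). Because of the shared runs, these 6 calls cannot be counted as separate genes.

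Linker and H2B genes diverged among themselves. Hist1h1a, which encodes linker histone H1.1, had levels of 8.82, 9.17 and 8.57 in control and 9.87, 9.40 and 9.67 with siSfpq. It rose by 0.80 ± 0.18 (adjusted p = 0.0199), with no overlap. Hist1h1c, which encodes H1.2, had levels of 9.54, 10.00 and 9.61 in control and 8.11, 9.58 and 7.86 with siSfpq, and fell by 1.20 ± 0.35 (adjusted p = 0.0452). Here replicate 3 lay within the control range and the other siSfpq samples far below it. Hist1h1e and Hist1h1b, encoding H1.4 and H1.5, had changes of 0.36 and 0.20 which did not pass without the block and did with it (adjusted p = 0.0292 and 0.0409). Among 9 H2B genes, Hist1h2bb rose, from 5.34, 5.04 and 5.25 in control to 7.16, 5.59 and 6.90 with siSfpq (1.34 ± 0.34, adjusted p = 0.0276, 2.53-fold). All 3 siSfpq samples lay above control. Hist1h2bc, Hist2h2be and Hist1h2bq, which encode H2B too, had changes of -1.17 ± 0.43, -0.76 ± 0.37 and -1.78 ± 0.73, which did not pass without the block and did with it (adjusted p = 0.0114, 0.0241 and 0.0286). Levels of Hist1h2bc were 10.13, 10.70 and 10.27 in control and 8.52, 10.48 and 8.58 with siSfpq. Those of Hist1h2bq were 4.38, 5.51 and 4.82 in control and 2.08, 5.36 and 1.93 with siSfpq, where its probe was well above background on 1 of 4 arrays. The size of the Hist1h2bq change and its blocked p are therefore uncertain. For both genes replicate 3 stayed within the control range.

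H3 and H4 genes were mostly above 0 and seldom called. Of 8 replication-dependent H3 genes, Hist1h3a rose, from 7.44, 7.70 and 7.59 in control to 8.68, 7.93 and 8.85 with siSfpq (0.91 ± 0.22, adjusted p = 0.0262), without overlap. The Hist1h3a probe shares a run of 21 bases with a probe of another histone gene. Hist1h3i had a change of 0.93 ± 0.28 (adjusted p = 0.0512, and 0.0243 with the block), and its replicate 3, at 8.53, lay within the control range of 8.38 to 8.57. The 9 H4 genes all had changes above 0, from 0.10 to 0.89 with a median of 0.67. None was called, and with the block 7 were higher (17.8% of all genes). Probes of Hist1h4d, Hist1h4j and Hist1h4k shared runs of 20 to 26 bases with a probe of another histone gene, so these values are not independent. Hist1h4c, one of the H4 genes, had a change of 0.89 ± 0.30 (adjusted p = 0.0743, and 0.00922 with the block). Hist1h3d, Hist1h2bm and Hist1h4d, named for their signal in control, had changes of 0.38, 0.50 and 0.65, which did not pass without the block and did with it (adjusted p = 0.0146, 0.0478 and 0.00580).

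**Figure D3:**
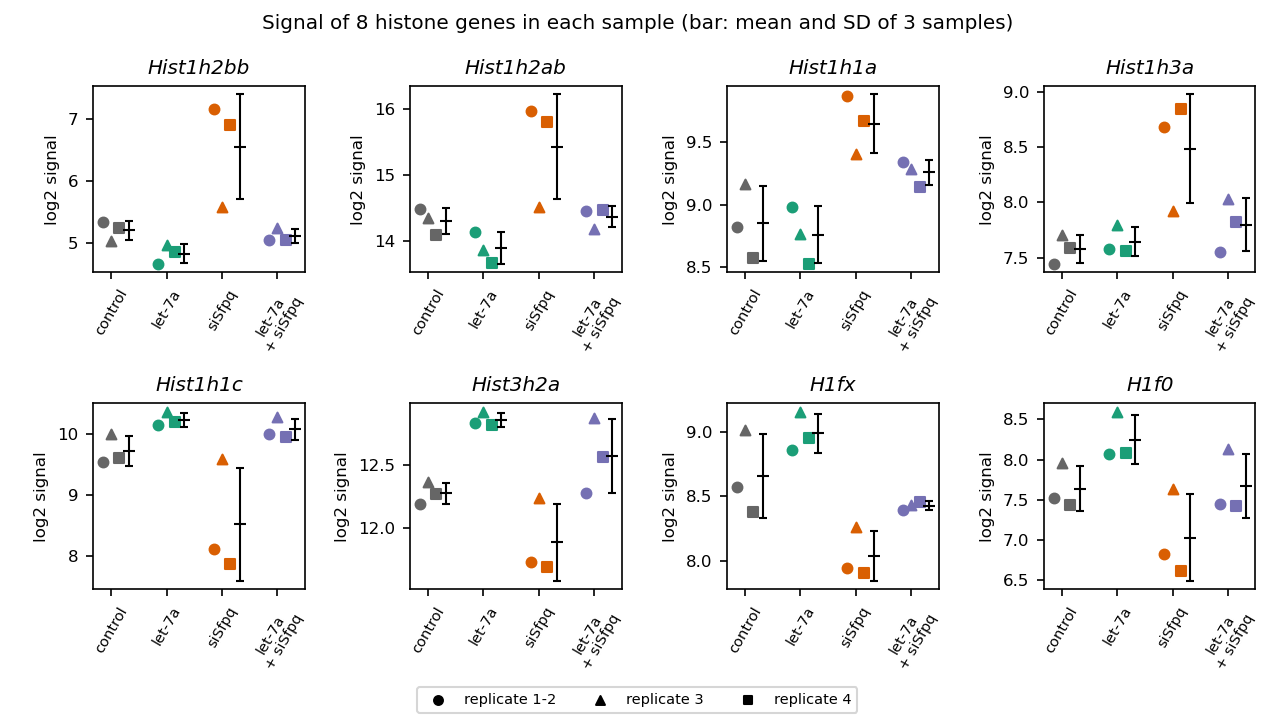
Log2 signal of 8 histone genes in each sample, by condition (colour) and replicate number (marker), with the mean and SD of the 3 samples beside them. The upper genes are higher in every siSfpq sample than in control, with changes of 0.80 to 1.34, and the lower ones have changes of -0.39 to -1.20.

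Of the replacement genes, the linker gene H1fx was the one that passed the test. H1fx, which encodes H1.X, had levels of 8.57, 9.02 and 8.38 in control and 7.94, 8.26 and 7.90 with siSfpq, and fell by 0.62 ± 0.17 (adjusted p = 0.0381). The groups did not overlap, and the replicate 3 samples differed no less than the others. H1f0, which encodes H1.0, a linker variant typical of differentiated cells, had levels of 7.52, 7.96 and 7.44 in control and 6.83, 7.64 and 6.62 with siSfpq. Its change of -0.61 ± 0.29 did not pass without the block and did with it (adjusted p = 0.182 and 0.00480). The H3.3 gene H3f3a had a change of -0.30 ± 0.16 (adjusted p = 0.232, and 0.0123 with the block), and the other H3.3 gene, H3f3b, one of -0.09 ± 0.16. H2afv, encoding an H2A.Z form, had a change of -0.24 ± 0.08 (adjusted p = 0.0796, and 0.0197 with the block) without overlap. H2afz, the main H2A.Z gene, and H2afx, whose product is phosphorylated at DNA breaks, had changes of -0.17 ± 0.09 and -0.19 ± 0.12 and did not pass in either fit. H2afj, H2afy2, H2afy3 and the oocyte linker gene H1foo had changes of 0.01 to 0.12, and the macroH2A1 gene H2afy one of -0.22 ± 0.13. One H2afy probe was not well above background on any siSfpq array and was at least 1.36-fold higher in control (adjusted p = 0.156 for this probe).

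Different probes of 1 gene could have changes of opposite sign. The stem-loop probe of Hist2h2bb, an H2B gene, had levels of 9.56, 9.69 and 9.19 in control and 10.23, 9.64 and 10.20 with siSfpq, a change of 0.54. Its distal probe had levels of 8.48, 8.73 and 8.39 in control and 7.02, 8.53 and 6.92 with siSfpq, a change of -1.04. Fitted as single probes, neither passed (adjusted p = 0.122 and 0.0633), and replicates 1-2 and 4 lay above the control range for one probe and below it for the other. The stem-loop probe shares a run of 21 bases with probes of other histone genes. H2afj also had values of both signs, with a change of 0.54 (adjusted p = 0.0346) for the probe that shares the H2A run and one of -0.52 (adjusted p = 0.196) for a probe whose start lies 1252 bases further on. The gene mean of H2afj, 0.01, averages both probes, and the signal of the first cannot be assigned to H2afj alone. For Hist1h2ak the probes agreed in direction, at 0.47 and 0.93 (adjusted p = 0.0363 and 0.0291). These genes were picked after their values were seen.

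**Figure D4:**
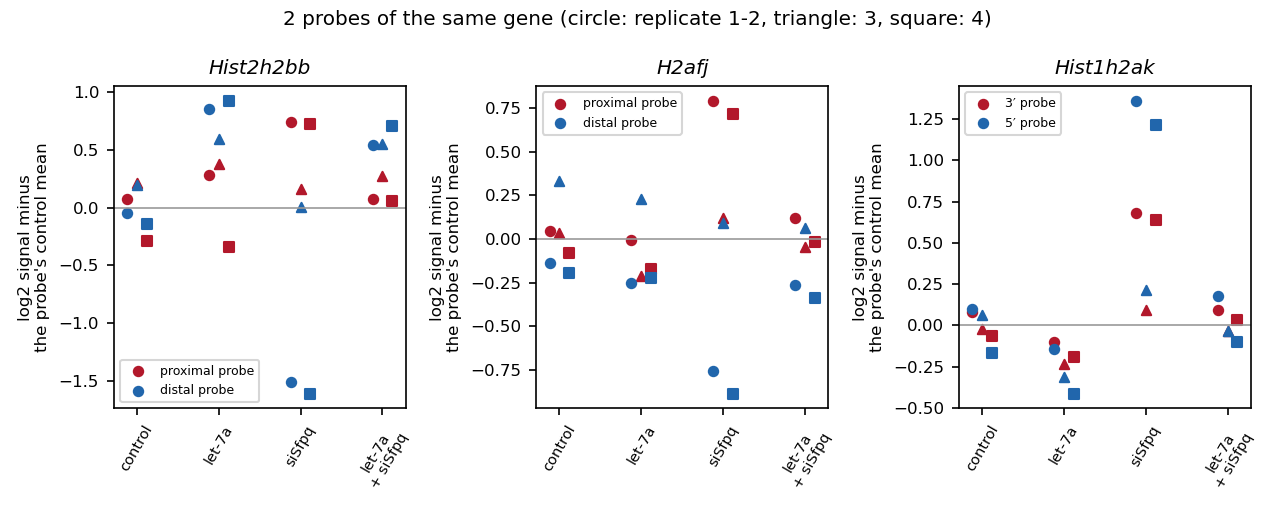
Log2 signal of 2 probes of Hist2h2bb, H2afj and Hist1h2ak in each sample, minus the probe's own control mean, by condition, with markers for the replicate number. With siSfpq the probes of Hist2h2bb had mean changes of 0.54 and -1.04, those of H2afj 0.54 and -0.52, and those of Hist1h2ak 0.47 and 0.93.

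By probe, all 5 probes with the stem-loop had changes above 0 with siSfpq, from 0.54 to 0.93, and 1 was called higher. Over all 25852 probes tested in this way, 51.1% had changes above 0, 5.51% were called higher and 6.75% lower. Of the 15 replication-dependent probes that shared a run with another histone gene 14 had changes above 0, with a median of 0.52. The remaining 29 tested ones ranged from -1.78 to 1.34, with 9 below 0. The lowest value is that of the Hist1h2bq probe, which was dim with siSfpq, so its size is uncertain. Of the 19 tested replacement probes without a shared run 14 were below 0, with a median of -0.22.

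Promoters were compared for sequence motifs. RefSeq promoters (GRCm38.p6, 250 bases before to 50 after the start) were matched for 48 of the 60 genes. CCAAT, searched on both strands, was present in 83.3% of 36 replication-dependent, 61.5% of 13 replacement and 37.4% of all 32851 promoters. TATAAA was present in 55.6%, 7.69% and 13.6% of the same promoters, and the octamer ATTTGCAT, the site of Pou2f1, in 9 of 36, 1 of 13 and 1.74% of them. The 120 bases before the start are shown for a gene that rose with siSfpq and for one that did not, with these motifs in capitals.
Hist1h2bb (chr13:23746614-23746733, plus strand, GRCm38.p6): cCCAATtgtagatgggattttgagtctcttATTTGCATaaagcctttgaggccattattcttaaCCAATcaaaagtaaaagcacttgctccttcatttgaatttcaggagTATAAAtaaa
H1f0 (chr15:79028092-79028211, plus strand, GRCm38.p6): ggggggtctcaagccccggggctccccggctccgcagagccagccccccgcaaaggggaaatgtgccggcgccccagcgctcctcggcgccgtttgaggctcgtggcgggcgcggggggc
The H1f0 window held none of these motifs. The 2 genes shown are of different classes, and CCAAT was present in 61.5% of replacement promoters. Whether the motifs go with the change under siSfpq was not tested.

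The comparison of let-7a with control asked how histone genes responded to the miRNA. No histone gene was called by limma, where 4.47% of all genes were higher and 1.84% lower, and at an unadjusted p under 0.05 there were 3 replication-dependent and 2 replacement genes, against 19.9% of all genes. The median change was -0.12 over replication-dependent genes, 0.04 over replacement genes and -0.04 over all genes, and with 75th percentile scaling the replacement median was -0.04. With the block 3 replication-dependent and 4 replacement genes were higher and none was lower, against 10.9% and 9.98% of all genes. H3f3b, an H3.3 gene, had levels of 11.90, 12.32 and 12.02 in control and 12.60, 12.69 and 12.65 with let-7a, a change of 0.57 ± 0.16 (adjusted p = 0.0537, and 0.00221 with the block). Hist3h2a, an H2A gene outside the large clusters, had levels of 12.19, 12.36 and 12.27 in control and 12.83, 12.92 and 12.82 with let-7a, a change of 0.58 ± 0.16 (adjusted p = 0.0584, and 0.00507 with the block). H1f0 had levels of 7.52, 7.96 and 7.44 in control and 8.06, 8.60 and 8.09 with let-7a, a change of 0.61 ± 0.29 (adjusted p = 0.272, and 0.00486 with the block). For these 3 genes every let-7a sample lay above every control sample. Also higher with the block were H2afv, H3f3a, Hist1h3d and Hist2h2bb, by 0.24, 0.27, 0.40 and 0.45 (adjusted p = 0.0270, 0.0250, 0.0173 and 0.0210, and 0.119, 0.393, 0.211 and 0.132 without it). The Hist2h2bb value averages 0.79 for its distal probe and 0.11 for its stem-loop probe. Fitted by limma as single probes without the block, neither passed (adjusted p = 0.224 and 0.881). All 9 replication-dependent H4 genes had changes below 0, from -0.29 to -0.08, and none passed in either fit. Without replicate 3, 7 replication-dependent and 4 replacement genes were higher and 2 and 1 lower (14.4% and 13.6% of all genes). Over samples, 6 replication-dependent genes were higher without overlap and 6 lower, and 4 replacement genes were higher and 2 lower, against 15% and 14.1% of all genes.

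Transfection of both asked what remained of each response in combination. Against control, no histone gene was called by limma (1.13% and 0.198% of all genes were higher and lower), and 2 replication-dependent and no replacement genes had an unadjusted p under 0.05 (11.2% of all genes). The medians were 0.04, 0.02 and -0.02 for replication-dependent, replacement and all genes. Scaled to the 75th percentile, the first was -0.01. With the block (4.95% and 2.55% of all genes) H3f3b alone was higher, by 0.34 (adjusted p = 0.0472). Without replicate 3, 2 replication-dependent genes and 1 replacement gene were higher (9.51% and 7.23% of all genes higher and lower). Against let-7a none was called either (0.799% and 1.97% of all genes), and 1 gene of each class had an unadjusted p under 0.05 (15.7% of all genes). H1f0 and H1fx had changes of -0.58 and -0.56, lower with the block (adjusted p = 0.0105 and 0.0142), and Hist1h1b one of 0.29, higher with it (5.57% and 6.71% of all genes, adjusted p = 0.0227). Without replicate 3, 3 genes of each class were lower than with let-7a (12.7% and 12.2% of all genes higher and lower). Over samples, 4 replication-dependent genes were higher and 2 lower than control without overlap (10.5% and 8.94% of all genes), and against let-7a 7 were higher and none lower, with 2 replacement genes in each direction (10.8% and 11.5%). Sfpq had a smaller mean fall in these cells than with siSfpq alone. This difference passed only with the block and was 0.03 in replicate 3. The part of it in the smaller changes of histone genes was not tested.

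In cells with siSfpq, the addition of let-7a was compared with siSfpq alone, a comparison that shares its siSfpq samples with the one above. Of the replication-dependent genes 4 rose and 8 fell, and of the replacement genes 1 rose (5.54% and 3.64% of all genes were higher and lower). The medians were -0.50, 0.22 and -0.02 for replication-dependent, replacement and all genes, and -0.64, 0.10 and -0.04 with 75th percentile scaling. With the block 6 replication-dependent genes were higher and 27 lower, and 6 replacement genes were higher (17% and 15.4% of all genes). Hist1h2bb had levels of 7.16, 5.59 and 6.90 with siSfpq and 5.05, 5.25 and 5.05 with both, and fell by 1.44 ± 0.34 (adjusted p = 0.0267). Hist2h2ab had levels of 6.03, 5.63 and 6.16 with siSfpq and 4.55, 4.53 and 4.58 with both, and fell by 1.39 ± 0.26 (adjusted p = 0.0133). Hist1h1c had levels of 8.11, 9.58 and 7.86 with siSfpq and 10.01, 10.27 and 9.95 with both, and rose by 1.56 ± 0.35 (adjusted p = 0.0231). In these 3 genes the groups did not overlap, as in 12 replication-dependent genes in all that were lower and 3 that were higher, and 3 replacement genes that were higher (12.3% lower and 12.2% higher of all genes). Hist1h3i and Hist1h3g, H3 genes with the stem-loop in their probes, fell by 1.15 and 0.82, and Hist1h2bc and Hist3h2a rose by 1.59 and 0.68. Hist2h2bb was the last of the 4 that rose, with a gene mean of 0.62 (adjusted p = 0.0374) that averages 1.64 for its distal probe (adjusted p = 0.0180) and -0.40 for its stem-loop probe (adjusted p = 0.259). With the brighter of these, the stem-loop probe, standing for the gene the change was -0.40 (adjusted p = 0.261). H2afv was the replacement gene that rose, by 0.30 ± 0.08 (adjusted p = 0.0447). H1f0, H1fx, H3f3a, H3f3b and H2afz had changes of 0.64, 0.39, 0.41, 0.43 and 0.24, which did not pass without the block (adjusted p = 0.180, 0.168, 0.114, 0.105 and 0.110) and did with it (0.00493, 0.0298, 0.00481, 0.00910 and 0.0307).

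These calls varied with the samples too. Without replicate 3, 7 replication-dependent genes were higher and 27 lower, and 7 replacement genes were higher (24% and 21.2% of all genes), and without replicate 1-2 or without replicate 4 limma called no histone gene and 0% of all genes. At an unadjusted p under 0.05 there were then 13 histone genes without replicate 1-2 (8.73% of all genes) and 7 without replicate 4 (7.39%), with replication-dependent medians of -0.39 and -0.37 and replacement medians of 0.18 and 0.23. Sfpq itself was higher with both than with siSfpq alone, by 0.76, 0.03 and 0.79 in replicates 1-2, 3 and 4 (0.53 ± 0.19, adjusted p = 0.105, and 0.0395 with the block). The median change of the replication-dependent genes in the same replicates was -0.65, -0.10 and -0.68. Added let-7a and a weaker knockdown cannot be told apart in this comparison.

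The interaction, that is, the difference between the let-7a effects in the presence and absence of siSfpq, called no histone gene with limma and 0% of all genes, with 8 of 54 histone genes and 6% of all genes at an unadjusted p under 0.05. Hist1h2aa had the smallest p of them, with a difference of -0.81 ± 0.26 (adjusted p = 0.799). With the block none was called either (0.0204% of all genes), and 18 had an unadjusted p under 0.05 (16.6% of all genes). Without replicate 3 the interaction was above 0 in 3 called replication-dependent genes and 1 replacement gene and below 0 in 19 replication-dependent genes (11.4% and 9.24% of all genes).

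Genes that make, process and place histones were examined as lists. In the list of 16 genes for stem-loop processing and decay, 1 was called higher with siSfpq and none lower (5.75% and 6.74% of all genes), and with the block 4 were higher and 2 lower (17.8% and 19%). The 1 called in both fits was Zfp473, which encodes a zinc finger protein of the U7 snRNP complex, with a change of 1.16 ± 0.21 (adjusted p = 0.0102). Slbp, the stem-loop binding protein, had a change of -0.18 ± 0.25 (adjusted p = 0.698), and Lsm11, a U7 snRNP subunit, one of 0.39 ± 0.14 (adjusted p = 0.0771, and 0.0103 with the block). Of 8 tested transcription genes only Hinfp, an activator of H4 genes, rose (0.97 ± 0.24, adjusted p = 0.0257), and with the block 1 was higher and 1 lower. Of 27 chaperone genes and 19 S phase genes none was called with siSfpq by limma, with medians of 0.09 and 0.08, and with the block 2 and 5 were higher and 1 and 3 lower. With let-7a no gene of the 4 lists was called higher and 6 fell (4.47% and 1.84% of all genes), namely, Ccne1 (-0.70), Lsm11 (-0.51), Rbbp7 (-0.84), Nap1l1 (-0.39), Rrm2 (-0.54) and Cdt1 (-0.48). With the block 3 transcription, 1 processing, 9 chaperone and 10 S phase genes were lower and 1 processing gene was higher (9.98% and 10.9% of all genes lower and higher). In let-7a + siSfpq against siSfpq, Zfp473, Lsm11, Ccna2, Rbbp7, Hira and Ssrp1 fell, by 0.40 to 1.19, and none was called higher (3.64% and 5.54% of all genes). With the block 3 transcription, 5 processing, 10 chaperone and 3 S phase genes were lower and 1 chaperone gene was higher (15.4% and 17% of all genes). Of the 8 neuron markers, 7 rose with let-7a and 7 fell with siSfpq, and the counts with the block were also 7 and 7. With siSfpq 2 of 8 embryonal carcinoma markers, 1 of 5 mesendoderm markers and 2 of 6 fibroblast markers were called higher and none lower, and with the block 2, 3 and 2 were higher and 2 fibroblast markers lower. The median changes of these lists were 0.16, 0.81 and -0.27. With let-7a 3 of 8 embryonal carcinoma and 1 of 5 mesendoderm markers were called lower and 1 of 6 fibroblast markers higher, and with the block 4 and 1 were lower and 1 mesendoderm and 2 fibroblast markers higher. The part of cell state in the histone values was not tested. Fewer cells of a type and less RNA per cell cannot be told apart in these samples.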

How the data were processed

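P19 cells of 4 conditions were measured on 16 arrays of 1 colour. The authors deposited scanner intensities of each spot (Feature Extraction, background-subtracted processed intensity, not normalised between arrays) and, per the methods, a log2 table quantile normalised with limma. Here these processed intensities were converted to log2 and quantile normalised (limma 3.58.1, R 4.3.3). Outlier spots and probes named by a region were left out, 42 probes without a value on some array were dropped (none a member), and the probes of a gene were averaged. Members were grouped by the file's gene name, and other probes by RefSeq symbol where the accession matched (28026 of 55681 probes). Signal over background limits the precision of dim probes, and 33733 to 38464 of 59305 spots per array were well above background.

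A single limma fit with an intensity trend covered the 4 conditions and 12 samples. The 5 comparisons and the interaction were tested two-sided, and the code was tested on simulated data. Same-numbered samples of different conditions had correlations of 0.29 to 0.71 in their deviations from the condition means. A fit with the replicate number as a block was therefore run beside it. The labels do not say that same-numbered samples belong together, and the source of these correlations was not tested. Alternatives were 75th percentile scaling, normexp with an offset of 50, no filter and a stricter filter on dim probes, the brightest probe, single probes, slide or replicate blocks, arrays 1 and 2 as separate samples, pairs of groups fitted alone, no trend, the authors' table and left-out samples. Named were all tested replacement genes, the called replication-dependent genes, the brightest Hist gene of each type, and pathway genes. The members, lists and named genes were chosen with earlier results of these data known. Sequences and coordinates of probes are those of the array files (mm9). Other tools were the R package data.table (version 1.17.8), Python 3.11.15, numpy 2.4.6, pandas 2.3.3 and, for figures, matplotlib 3.10.9.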

Additional observations from a re-analysis of the deposited data

How the results depend on the processing

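The difference between the median change of replication-dependent and replacement genes kept its sign in all alternatives for siSfpq against control (0.69) and for let-7a + siSfpq against siSfpq (-0.71), and with one sample or replicate number left out it ranged from 0.45 to 0.98 and from -1.01 to -0.51. For let-7a against control (-0.15) it was -0.21 with the stricter filter, -0.25 with the brightest probe and -0.24 with single probes (left-out range -0.24 to -0.10), for both against let-7a (0.15) it was 0.0874 with normexp, 0.0775 in the authors' table and 0.26 with single probes (0.11 to 0.22), and for both against control (0.01) it was -0.0288 with 75th percentile scaling and 0.0724 over replicates 1, 2 and 4 (-0.0522 to 0.10).

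Counts of called histone genes, and the share of all genes called, both varied. For siSfpq against control (14, and 12.5% of all genes) the counts were 2 without a filter (4.42%), 37 with the replicate block (36.8%), 23 with the slide block (15.4%), 36 with arrays 1 and 2 separate (34.6%), 42 over replicates 1, 2 and 4 (47.1%), 0 with only the groups compared (0%) and 9 without the trend (11.1%). For both against siSfpq (13, and 9.18%) they were in the same order 2 (2.84%), 39 (32.4%), 21 (11.9%), 36 (31%), 41 (45.2%), 0 (0.997%) and 7 (7.56%). For let-7a against control (0, and 6.3%) they were 1 with normexp (7.01%), 2 with the brightest probe (6.13%), 7 with the replicate block (20.9%), 3 with the slide block (7.62%), 5 with arrays 1 and 2 separate (18.7%), 14 over replicates 1, 2 and 4 (28%), 3 with only the groups compared (8.13%) and 2 with single probes (5.64% of all probes). For both against let-7a (0, and 2.77%) they were 3 with the replicate block (12.3%), 3 with arrays separate (13.3%) and 6 over replicates 1, 2 and 4 (24.9%), for both against control (0, and 1.33%) 1 and 3 with the replicate block (7.5%) and over replicates 1, 2 and 4 (16.7%), and for the interaction (0, and 0%) 23 over the latter (20.7%). With samples left out, the counts ranged from 0 to 14 for let-7a against control, 0 to 42 for siSfpq against control, 0 to 3 for both against control, 0 to 6 for both against let-7a, 0 to 41 for both against siSfpq and 0 to 23 for the interaction. Without the siSfpq replicate 3 alone, the counts for siSfpq and for both against siSfpq were 40 and 39 (33.4% and 29.8%), without the siSfpq replicate 1-2 or 4 alone they were 0 (1.36% to 1.5%), and without the control replicates 1-2, 3 and 4 in turn the first was 0, 4 and 0 (1.58%, 7.18% and 1.78%). Without the let-7a + siSfpq replicates 1-2, 3 and 4 in turn the second was 1, 4 and 0 (1.75%, 7.45% and 1.51%). The cause was not tested.

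The 27 called pairs of gene and comparison, and Sfpq, kept their call with the replicate block, the slide block, arrays 1 and 2 separate and without replicate 3, and of these 28 calls 23 were lost without a filter, 11 without the trend, 28 with only the groups compared, 4 with 75th percentile scaling, 4 with normexp, 3 in the authors' table, 3 with the brightest probe (1 of them reversed), 1 with the stricter filter, 28 without replicate 1-2 and 28 without replicate 4. Hist2h2bb against siSfpq reversed from 0.62 to -0.40 with its brightest probe, which is the stem-loop probe. Dim genes such as Hist1h2bq and Hist2h2be were above background on only 1 and 3 of 4 siSfpq arrays, so the size of their fall is uncertain.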
